A study of Mus musculus with 10 samples.

Results

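Transcript levels of 10 immediate early and stress genes were examined in CD31+ cells from the hearts of 10 mice. The genes were Fos, Fosb, Jun, Junb, Atf3, Egr1, Ier2, Ier3, Nr4a1 and Hspa1a, a set chosen by name. All 10 were found among the 46983 genes of the count table by their versioned Ensembl identifiers, and all 10 passed the filter on low counts. Male wild type C57BL/6J mice aged 8 weeks were put on a control diet with 11.6% of its energy as fat or a ketogenic diet with 89.5% as fat, and hearts were taken after 14 days (n = 5 mice per diet, 1 library per mouse). Both groups were littermates according to the study, had standard chow beside their diet at the start, and carried no genetic change or drug. Hearts were digested with collagenase and dispase, warmed to body temperature, and the cells were then picked with beads against CD31, a surface protein of endothelial cells that platelets and some leukocytes carry as well.

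Immediate early genes are transcribed within minutes of a stimulus from factors already present in the cell, such as serum response factor and its partners, which MAP kinases act on. Their products are mostly short-lived transcription factors, and their RNAs are short-lived too. Enzymatic digestion of a tissue is itself a well-known stimulus for these genes and for the inducible heat shock protein genes, so that in cells released from a solid organ their RNA can reflect the time between dissection and lysis as well as the state of the cells in the animal. In bulk RNA of this kind, fewer cells of a type and less RNA per cell cannot be told apart.

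No difference between the diets passed the test for any of the 10 genes. Between mice fed the same diet, however, the genes split into distinct patterns. The deposited reads of Fos, Atf3, Ier3 and Nr4a1 were nearly equal in every mouse and varied less than independent counting would give, those of Egr1 and Hspa1a varied about as much as such counting gives, whereas the reads of Junb and Ier2 differed strongly between mice, rose and fell together, and did so on both diets.

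Between 10885154 and 12206734 reads per control mouse and between 11108020 and 12710861 reads per ketogenic mouse were counted on genes (coefficient of variation, CV, 4.77% over the 10 mice). Reads were 50 bases long, and the SMART-Seq kit, which amplifies full-length cDNA from little RNA, does not keep the strand. No count of a gene of 300 bases or longer, by the length that its RPKM implies, exceeded 1.05 reads per base and strand, and 4 of 29719 such genes exceeded 1 in any mouse. The reads of each gene are therefore given below also as a percent of its start positions, meaning the places on both strands of 1 annotated transcript at which a 50-base read found nowhere else in the annotated transcripts can begin. The bound of 100% is not strict, since a gene can have further exons and reads can reach past an annotated end. A count near 100% has little room to rise if each start position was counted once. Whether duplicate reads were removed is not given in the sources used here. Normalized counts are reads scaled to a common library size by edgeR's TMM factors.

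**Figure D1:**
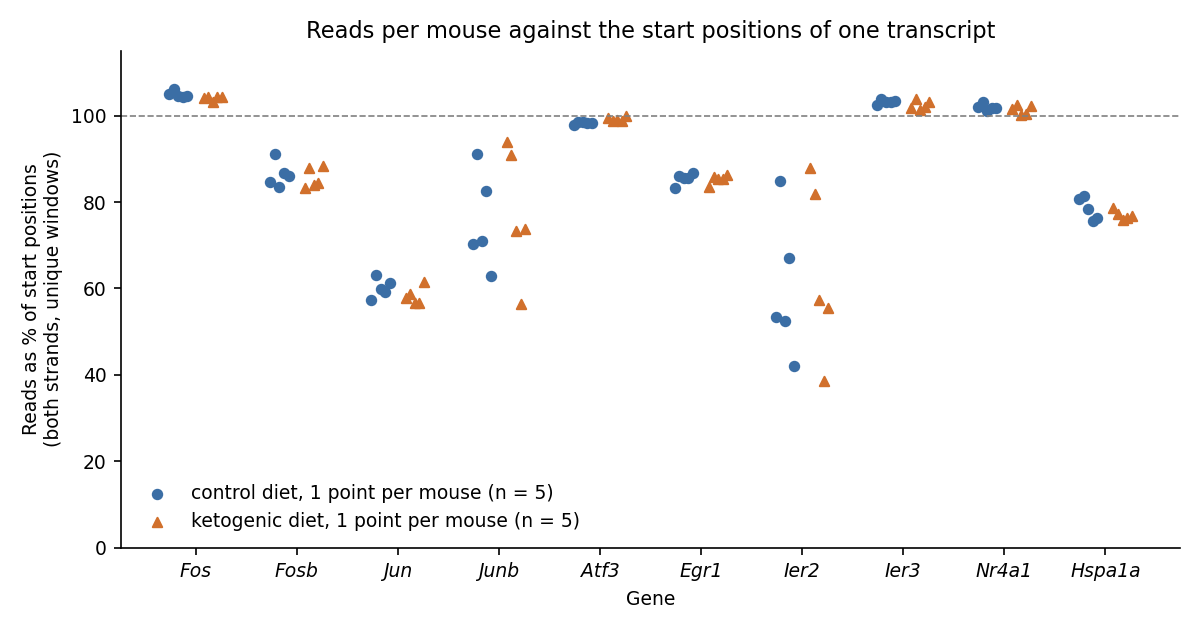
Deposited reads of each gene in each mouse (vertical axis) as a percent of the start positions on both strands of 1 transcript of that gene, with control mice as circles and ketogenic mice as triangles (n = 5 each). Fos, Atf3, Ier3 and Nr4a1 lie between 97.8% and 106.1% in every mouse, while Ier2 runs from 38.6% to 87.8% and Junb from 56.4% to 94.0%.

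Fos, Fosb, Jun and Junb encode subunits of AP-1, a transcription factor made of a Fos and a Jun family protein or of 2 Jun proteins. Fos (ENSMUSG00000021250.13, chr12:85473890-85477273 on the plus strand of mm10) had 4324, 4369, 4306, 4299 and 4307 reads in control replicates 1 to 5. In ketogenic replicates 1 to 5 it had 4286, 4292, 4250, 4296 and 4298 reads. The highest and lowest mouse thus differed by a ratio of 1.03, and every mouse filled between 103.2% and 106.1% of the 4118 start positions of the transcript Fos-201. The reads as deposited were lower on the ketogenic diet without overlap, but the nearest mice of the diets were 1 read apart (two-sided exact permutation test, unadjusted p = 0.00794, the smallest that regrouping 5 and 5 mice can give). Such a gap, with every ketogenic mouse lower, was seen in 0.702% of the 15949 genes tested. After scaling to depth, the normalized counts of Fos were 4430 ± 192 on the control and 4196 ± 203 on the ketogenic diet (SD, n = 5 each) and overlapped. Control replicate 1, with the fewest reads in all, then had the highest normalized count of 4670, and ketogenic replicate 5, with the most reads in all, had the lowest of 3916. The mice ran by normalized Fos in nearly the reverse order of their library sizes.

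Fosb (ENSMUSG00000003545.2, chr7:19302696-19310051, minus strand) had the most reads of the 10 genes, between 6237 and 6796 in control mice and between 6216 and 6597 in ketogenic mice. These filled 83.3% to 91.0% of the start positions of Fosb-201. Its normalized counts were 6609 ± 195 and 6258 ± 341, and 4 ketogenic mice, at 6011 to 6154, lay below all control mice, while ketogenic replicate 2, at 6859, lay above them. The log2 fold change was -0.08 ± 0.04 (SE, edgeR adjusted p = 0.300). In deposited reads the diets overlapped throughout. Control replicate 2 had the most reads, and ketogenic replicate 1 the fewest.

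Jun (ENSMUSG00000052684.4, chr4:95049034-95052222, minus strand) came nearest to a difference between the diets. Control replicates 1 to 5 had 3386, 3737, 3535, 3501 and 3622 reads, and ketogenic replicates 1 to 5 had 3415, 3467, 3356, 3354 and 3639. As normalized counts these were 3657, 3563, 3659, 3686 and 3643 in control mice against 3370, 3625, 3295, 3260 and 3316 in ketogenic mice. Control mice lay close together, 4 ketogenic mice lay below all of them, and ketogenic replicate 2 lay among them. The edgeR log2 fold change, ketogenic minus control, was -0.11 ± 0.03 (SE, 95% confidence interval -0.18 to -0.04), with an edgeR adjusted p = 0.111 (Benjamini-Hochberg over all genes tested). The exact permutation test of the same difference gave p = 0.0159, unadjusted. Without ketogenic replicate 2 the edgeR difference was -0.14 with an adjusted p = 0.0236, so the call turned on that mouse. Jun overlaps a gene on the opposite strand, Junos, and reads without strand cannot be assigned between them.

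Junb (ENSMUSG00000052837.5, chr8:84974484-84978718, minus strand) behaved differently from the other AP-1 genes. It had 2476, 3206, 2498, 2902 and 2216 reads in control replicates 1 to 5 and 3308, 3199, 2578, 1984 and 2596 reads in ketogenic replicates 1 to 5. Ketogenic mice held both the highest and the lowest value, and the control mice lay between them. The reads filled between 56.4% and 94.0% of the start positions of Junb-201. Normalized counts were 2720 ± 349 on the control and 2687 ± 606 on the ketogenic diet, a log2 fold change of -0.02 ± 0.14 (SE, 95% confidence interval -0.33 to 0.29, edgeR adjusted p = 0.963). The gene overlaps Prdx2 on the opposite strand.

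Atf3 (ENSMUSG00000026628.13, chr1:191170296-191218039, minus strand) encodes a transcription factor of the ATF/CREB family that is induced by many stresses and can pair with Jun proteins. Control replicates 1 to 5 had 3633, 3662, 3658, 3652 and 3654 reads, and ketogenic replicates 1 to 5 had 3693, 3668, 3674, 3668 and 3710. These were the most even counts of the 10 genes, with a ratio of 1.02 between the highest and lowest mouse, and they filled 97.8% to 99.9% of the start positions of Atf3-203. As deposited, the reads were higher in every ketogenic than in every control mouse, with 6 reads between the nearest (exact permutation test, unadjusted p = 0.00794). A gap with every ketogenic mouse higher was seen in 3.02% of genes tested, and one in either direction in 3.72%. Fos and Atf3 were the only ones of the 10 genes whose deposited reads did not overlap. Once scaled to depth, Atf3 pointed the other way, with normalized counts of 3744 ± 168 and 3606 ± 163 that overlapped (log2 fold change -0.05 ± 0.04, SE, edgeR adjusted p = 0.512). Its locus overlaps Gm24748 on the opposite strand.

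Egr1 and Nr4a1 encode transcription factors of other families, a zinc finger protein that binds GC-rich sites and an orphan nuclear receptor. Egr1 (ENSMUSG00000038418.7, chromosome 18) had 4977 to 5182 reads in control and 4989 to 5151 reads in ketogenic mice, 83.3% to 86.7% of the start positions of Egr1-202. Replicate 1 of each diet was the lowest of its group, and the other mice lay between 5101 and 5182 reads. Nr4a1 (ENSMUSG00000023034.6, chr15:101254269-101274795, plus strand) had 4908 to 5013 reads in control and 4860 to 4975 reads in ketogenic mice, 100.1% to 103.2% of the positions of Nr4a1-201. Both genes overlapped between the diets on every scale used. Their normalized counts were 5232 ± 200 against 4988 ± 240 for Egr1 and 5077 ± 218 against 4817 ± 248 for Nr4a1.

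Ier2 and Ier3 carry the name of the response itself. Ier2 encodes a small nuclear protein, and Ier3 a regulator of cell survival. Ier2 (ENSMUSG00000053560.4, chr8:84661331-84662852, minus strand) had 1572, 2503, 1548, 1977 and 1242 reads in control replicates 1 to 5 and 2588, 2412, 1692, 1137 and 1635 reads in ketogenic replicates 1 to 5. The highest mouse had 2.28 times the reads of the lowest, and both were on the ketogenic diet. The reads filled between 38.6% and 87.8% of the start positions. Normalized counts were 1803 ± 440 and 1866 ± 645, and the log2 fold change was 0.05 ± 0.23 (SE, 95% confidence interval -0.45 to 0.55, edgeR adjusted p = 0.938). With this spread between mice, a difference of the size of that interval's bounds could not be told from none. Ier3 (ENSMUSG00000003541.6, chr17:35821684-35822923, plus strand) had instead 2217 to 2249 reads in control and 2191 to 2248 reads in ketogenic mice, 101.2% to 103.9% of its start positions, and normalized counts of 2289 ± 97.0 and 2170 ± 114.

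Hspa1a (ENSMUSG00000091971.3, chr17:34969190-34972156, minus strand) encodes the inducible HSP70 chaperone, which binds unfolded proteins after heat or other protein stress. It has a near-identical neighbour, Hspa1b, and a read that fits both genes cannot be assigned to either. Of the 2918 windows of 50 bases in Hspa1a-201, 983 (33.7%) occurred in no other annotated gene, the rest being shared with Hspa1b, Hspa1l, Gm20481 or Gm10501. The stretch below, from the coding part of the single exon of each gene, shows how alike they are. Transcript positions 338 to 437 are given for both, read 5′ to 3′ along the minus strand of mm10, at chr17:34971720-34971819 for Hspa1a and chr17:34958802-34958901 for Hspa1b, with the only differing base in capitals. After that base begins a run of 638 identical bases, the longest the transcripts share.
Hspa1a: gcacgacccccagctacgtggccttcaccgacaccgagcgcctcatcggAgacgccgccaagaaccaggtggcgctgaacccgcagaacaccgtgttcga
Hspa1b: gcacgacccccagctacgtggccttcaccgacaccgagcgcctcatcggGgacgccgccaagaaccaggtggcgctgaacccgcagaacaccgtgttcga
Hspa1a had 1586, 1599, 1543, 1488 and 1498 reads in control replicates 1 to 5 and 1544, 1520, 1493, 1500 and 1510 reads in ketogenic replicates 1 to 5. Control mice held the highest and the lowest value, and the ketogenic mice lay between them. The counts equalled 75.7% to 81.3% of the start positions that belong to Hspa1a alone, against 40.7% to 51.6% for Hspa1b, which had between 845 and 1072 reads. Normalized counts of Hspa1a were 1582 ± 81.5 and 1482 ± 79.6, a log2 fold change of -0.09 ± 0.05 (SE, edgeR adjusted p = 0.343). How reads that fit both genes were counted is not given in the sources used here, so the level of either gene is uncertain.

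The authors' RPKM values, in which counts are divided by the length of the gene and the size of the library, set the 10 genes in an order of level per length. Mean RPKM over the 10 mice was highest for Nr4a1 at 172 and Ier3 at 169. These means differed by less than the spread between mice (SD of 6.71 and 6.55 in control mice), but within every mouse Nr4a1 was above Ier3. Fosb followed at 147, Junb at 126, Atf3 at 118 and Ier2 at 103. Junb spread over 90.4 to 157 RPKM and Ier2 over 62.6 to 144 RPKM, so that the places of Fosb, Junb, Atf3 and Ier2 changed from mouse to mouse. Jun at 94.3 and Fos at 89.1 overlapped over the mice, though within every mouse Jun was above Fos. Egr1 at 58.3 and Hspa1a at 44.3 were lowest. This order depends on the gene length that was used. For 6 of the 10 genes the length implied by the RPKM values differed from the length of their merged exons in GENCODE M21, for example 4152 against 2352 bases for Fos and 7520 against 4484 for Egr1. Per kilobase of merged exons, Ier3 came highest with 1967 reads and Fos next with 1829 reads, while Hspa1a stayed lowest with 515.

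Between the diets, 0 of the 10 genes passed an adjusted p under 0.05 by edgeR's quasi-likelihood test, against 213 of 15949 genes tested, or 1.34%. The lowest adjusted p was that of Jun. At an unadjusted p under 0.05 there was 1 gene, Jun, by edgeR, by DESeq2 and by limma on log2 RPKM with 1 or 0.1 added, while 17.8% of all genes tested had such a p by edgeR. The log2 fold change was below 0 for 9 genes and above 0 for Ier2, with a median of -0.08 against -0.01 over all genes tested. Without scaling to depth the median of the 10 genes was -0.01 and that of all genes 0.06, and 3 of the 10 genes lay above 0. The normalized counts of the diets overlapped for all 10 genes, whereas 4.34% of genes tested showed no overlap.

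**Figure D2:**
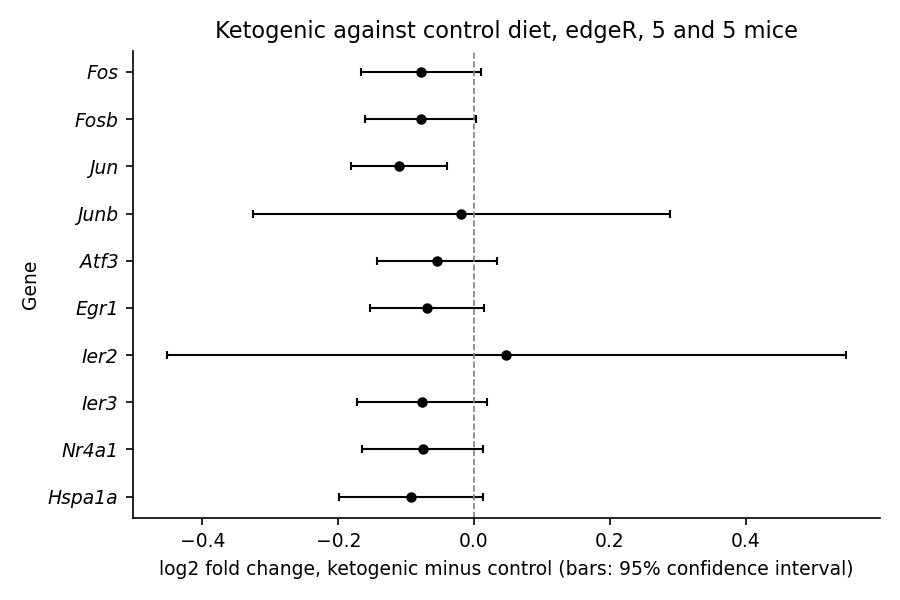
Log2 fold change of each gene, ketogenic minus control, from edgeR with 5 mice per diet, where points are estimates and bars 95% confidence intervals. The intervals of all genes but Jun include 0, and those of Junb and Ier2 are the widest.

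The spread between mice fed the same diet set the genes apart more than the diet did. Independent counting of reads gives a variance about equal to the mean. Differences between animals add to it, and in reads not scaled to depth so do differences in library size. How much of each ratio below comes from library size was not tested. Among 3771 genes tested with a mean of 1000 reads or more, the variance of the deposited reads within a diet was at the median 10.1 times the mean, and 240 of these genes (6.36%) had a variance below their mean. Of the 10 genes studied, 6 did. The ratio of variance to mean was 0.0634 for Atf3, 0.139 for Fos, 0.152 for Ier3, 0.430 for Nr4a1, 0.951 for Hspa1a and 0.953 for Egr1. For the last 2 it was about what independent counting gives, and above 1 in control mice, at 1.63 for Hspa1a and 1.15 for Egr1. It was 4.45 for Jun and 5.98 for Fosb, also under that median. At the other end it was 81.9 for Junb and 162 for Ier2.

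**Figure D3:**
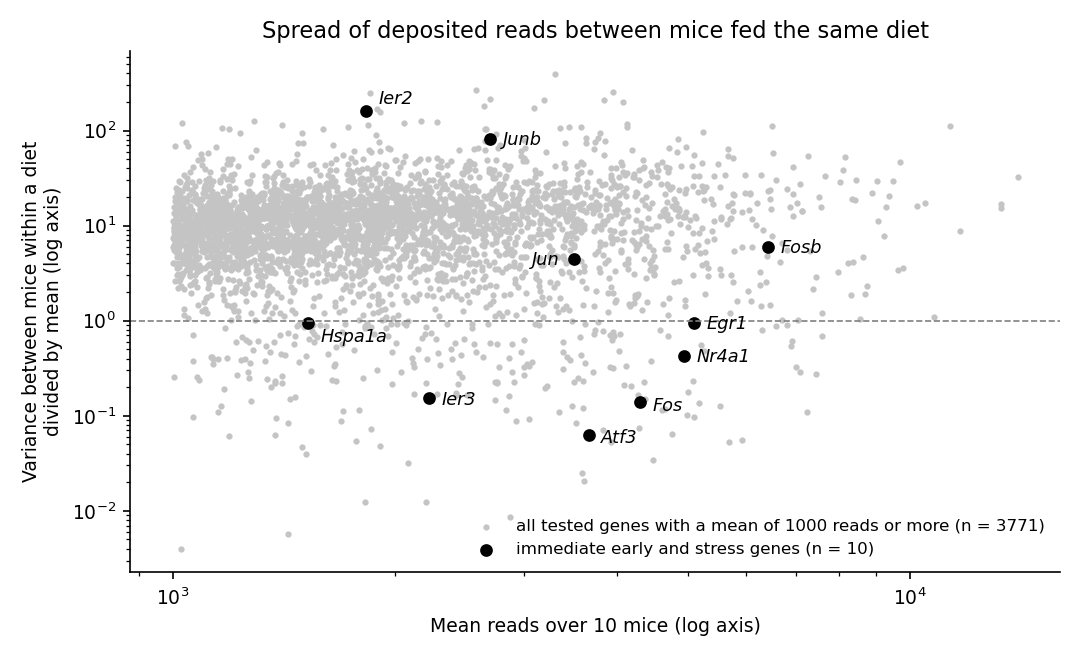
Variance of deposited reads between mice of a diet divided by the mean (vertical, log axis) against the mean reads over 10 mice (horizontal, log axis) for 3771 genes in grey and the 10 immediate early and stress genes in black. Fos, Atf3, Ier3 and Nr4a1 lie below the dashed line at 1, where independent counting would lie, Hspa1a and Egr1 lie almost on it, and Junb and Ier2 lie far above it.

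Scaling to depth raised the spread of the even genes and left that of Junb and Ier2 about the same. Over the 10 mice the CV of Fos was 0.699% in reads and 5.18% in normalized counts, near the CV of the library sizes. For Atf3 it went from 0.591% to 4.69%, for Ier3 from 0.878% to 5.29% and for Nr4a1 from 0.950% to 5.23%. Junb kept its CV, at 16.5% in reads and 17.3% in normalized counts, as did Ier2 at 28.3% and 28.4%. The edgeR biological coefficient of variation was 15.6% for Junb and 25.1% for Ier2, above the trend for genes of their abundance at 6.66% and 7.06%, and below the trend for the other 8 genes at 4.14% to 5.60%. Junb and Ier2 had a higher CV of normalized counts in ketogenic mice (22.6% and 34.6%) than in control mice (12.8% and 24.4%). This difference in spread did not pass the test (exact permutation test of the mean absolute deviation of log2 CPM, unadjusted p = 0.270 for Junb and 0.429 for Ier2), and no gene had a p below 0.0476 by that test. The mouse at the median of each diet does not deviate from it, which keeps p in this test from falling lower. No adjusted p under 0.05 could thus be reached, and the 0% of the 15949 genes that passed, with 60 at an unadjusted p under 0.05, carries no information on their spread.

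Junb and Ier2 varied together. In reads, ketogenic replicate 4 was lowest and control replicate 5 next lowest for both genes, and ketogenic replicates 1 and 2 and control replicate 2 held the 3 highest values of each. After the mean of each diet was subtracted from log2 CPM, Pearson's r was 0.989 and Spearman's rho 0.988 over the 10 mice (exact permutation within the diets, p = 0.000208 and 0.000278, adjusted over 45 pairs of genes to 0.00134 and 0.00208). Without the 2 mice farthest from the median of Junb, r was 0.987. The relation was as close in reads not scaled to depth, with r = 0.994 and an adjusted exact permutation p = 0.0125. The genes lie 311631 bases apart on chromosome 8, with 21 genes of the table between them. Their transcripts had the highest GC content of the 10, at 62.6% for Junb and 60.9% for Ier2 against 50.2% to 58.9% for the others. The genes outside the 10 that were most like them, named below, had a lower GC content. Whether the spread goes with GC content was not tested.

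**Figure D4:**
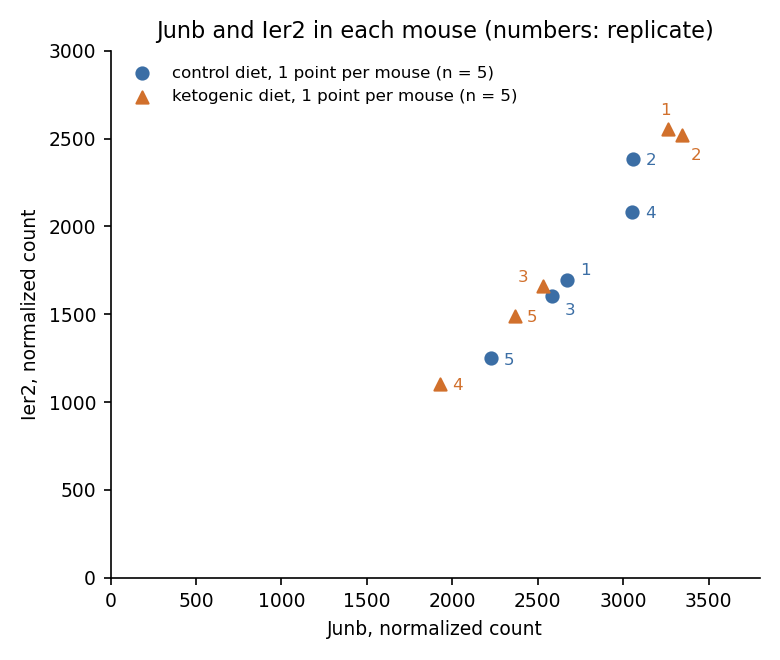
Normalized count of Ier2 (vertical axis) against that of Junb (horizontal axis) in each mouse, with control mice as circles and ketogenic mice as triangles, numbered by replicate. The points of both diets follow 1 line, from ketogenic replicate 4 at 1928 and 1105 to ketogenic replicate 2 at 3345 and 2522.

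The other pairs depended on the scaling. In log2 CPM, 26 of the 45 pairs had an adjusted p under 0.05, all with r above 0, and the median r was 0.783. Without scaling to depth, the pair of Junb and Ier2 was the only one left, and the median r was 0.391. Fos and Nr4a1, for example, had r = 0.990 in log2 CPM and 0.709 in unscaled reads, where the adjusted exact permutation p was 0.140. Apart from Junb and Ier2, r in unscaled reads ran from -0.524 for Egr1 and Hspa1a to 0.819 for Fosb and Nr4a1. Their adjusted exact permutation p was 0.3595 and 0.1365. How much of the shared course in log2 CPM comes from dividing by the same library sizes was not tested. Junb and Ier2 had r between 0.163 and 0.613 with the 8 other genes in log2 CPM, none with an adjusted p under 0.05.

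The genes most like Fos over the mice were genes with similarly even counts. Among 10347 protein-coding genes with a mean of at least 100 reads, the highest r with Fos in log2 CPM, diet means subtracted, was that of Fth1 (ferritin heavy chain) at 0.998, followed by mt-Cytb (cytochrome b) and Sparcl1 at 0.997 and Esam and Zfp36 at 0.996. Their variance was between 0.0123 and 0.328 times their mean, and 314 genes reached an r of 0.9. By 1 transcript each, their reads did not all stand at the same share of start positions. Counted as for Fos, the highest mouse filled 93.4% of those of Fth1-201, 105.6% for Sparcl1-201, 110.2% for Esam-201 and 67.6% for Zfp36-201. This share depends on the transcript used. For Zfp36, a mean of 3594 reads at a mean RPKM of 172 implies a gene shorter than the 2790 bases of Zfp36-201. On that shorter length its reads would fill a larger share. The genes most like Hspa1a were Gadd45g at 0.958, Vim at 0.956, Set and Csrp1 at 0.951 and Anxa2 at 0.949, with 72 genes at 0.9 or above. For Ier2 and Junb, looked up after their values were seen, other genes than the members came close as well. Ier2 had r = 0.987 with Npdc1, 0.984 with Cnn3, 0.981 with Aldh2 and 0.980 with Aspscr1. Junb had r = 0.992 with Aldh2, 0.981 with Maf1, 0.977 with Cnn3 and 0.976 with Rab11a. The GC content of their longest annotated transcripts ran from 39.5% for Rab11a to 56.6% for Npdc1, below that of Junb and Ier2. In all, 68 genes reached an r of 0.9 with Ier2 and 60 with Junb. Aldh2 ran from 1827 to 3457 reads and Maf1 from 610 to 1620, so that the course of Junb and Ier2 over the mice was shared by genes outside the immediate early response.

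Of 107 further genes of the immediate early and stress response in 8 lists, 106 were tested and 0 passed an adjusted p under 0.05, again against 1.34% of all genes. Below 0 lay 81 and above 0 lay 25, with a median log2 fold change of -0.07 against -0.01 over all genes tested. Without scaling to depth the median of all genes was 0.06. How far the direction of the listed genes depends on that scaling was not tested. At an unadjusted p under 0.05 there were 14 lower and 2 higher genes, together 15.1% of those tested, against 17.8% of all genes tested. The 14 lower genes alone were 13.2% of those tested, against 9.26% of all genes tested. Egr4, with at most 3 reads in a mouse, was not tested.

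Among 10 other AP-1 subunits and partners, 8 lay below 0. The 2 highest in RPKM were Mafk, a small Maf protein that pairs with larger bZIP factors, with a log2 fold change of -0.08 (adjusted p = 0.542), and Batf, which pairs with Jun proteins, with -0.10 (adjusted p = 0.642). In the EGR and NR4A families, Egr2 had -0.07 (adjusted p = 0.458) and Nr4a2 had -0.25 (adjusted p = 0.253), the latter with 1056 to 1715 reads. Of 17 other immediate early transcription factors 14 lay below 0, with values of -0.02 for Klf10 (adjusted p = 0.788) and -0.07 for Klf6 (adjusted p = 0.296), both Krüppel-like factors.

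Even counts were found in these lists too. Zfp36, whose protein speeds the decay of AU-rich RNAs and so of many immediate early transcripts, had 3582 to 3611 reads in the 10 mice and a variance of 0.0248 times its mean. Plk2, a kinase of the polo family, had 5455 to 5566 reads, Nfkbia, the inhibitor of NF-κB, 2878 to 2944 and Icam1, an adhesion molecule for leukocytes, 4951 to 5061. Of 59 listed genes with a mean of 1000 reads or more, 9 had a variance below their mean. The log2 fold changes of these 4 genes ran from -0.08 to -0.07, with adjusted p from 0.336 to 0.426. Dusp6, a phosphatase that switches off ERK, had 3903 to 4637 reads and a log2 fold change of -0.03 (adjusted p = 0.811), and Hbegf, a growth factor released from the membrane, had 1821 to 2284 reads and -0.06 (adjusted p = 0.449).

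The list of heat shock chaperones had 16 of 17 genes below 0 and a median of -0.10, and 0 of them passed an adjusted p under 0.05. Dnajb1, an HSP40 co-chaperone of HSP70, had 3963 to 4116 reads and a log2 fold change of -0.05 (adjusted p = 0.466). Bag3, a co-chaperone that exchanges the nucleotide of HSP70, had 3841 to 4303 reads and -0.04 (adjusted p = 0.501). Hspa1b, chosen after its values were seen, had -0.10 (adjusted p = 0.455). Of the upstream factors, 7 of 13 lay above 0, with 0.03 for Elk3, a partner of serum response factor (adjusted p = 0.645), and -0.01 for Hsf1, which switches on the heat shock genes (adjusted p = 0.956). Outside the rule for named genes, and chosen after its values were seen, Nfkbiz had the lowest adjusted p of the 106 genes, with a log2 fold change of -0.32 ± 0.09 (SE, adjusted p = 0.101 by edgeR and 0.0192 by DESeq2).

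Markers of other heart cells were present in every mouse, none of the listed genes being at 0 in all of them. All 10 endothelial markers were read, with a summed level of 5210 to 5526 CPM (counts scaled to library size) in control and 5108 to 5715 CPM in ketogenic mice. The 10 cardiomyocyte markers summed to 622.6 to 780.2 CPM in control and 732.1 to 1035 CPM in ketogenic mice (exact permutation p = 0.0159), and 9 of them had a log2 fold change above 0. The 7 lymphocyte markers summed to 255.6 to 372.3 against 210.1 to 254.6 CPM (p = 0.00794 by the exact permutation test) and the 4 platelet markers to 401.9 to 644.3 against 187.5 to 480.4 CPM (p = 0.0317 by the same exact test). By edgeR, 1 of these lymphocyte markers and none of the cardiomyocyte or platelet markers passed an adjusted p under 0.05. Only the lymphocyte sums did not overlap between the diets. The cardiomyocyte and platelet sums overlapped, as did those of fibroblast, smooth muscle, macrophage, neutrophil and erythroid markers. For these last lists the exact permutation p ran from 0.111 for macrophage to 0.651 for smooth muscle markers. With each mouse's cardiomyocyte or macrophage score in the model, 0 of the 10 immediate early and stress genes passed an adjusted p under 0.05. The part of the lymphocyte and platelet markers in their values was not tested.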

How the data were processed

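RNA from CD31+ heart cells of 10 mice was sequenced in single-read mode with 1 library per mouse. The authors deposited counts of reads per gene, without normalization, and RPKM values computed from them. The submitters' processing notes name bcl2fastq 2.17.1.14, STAR 2.3, HTSeq 0.6.0 and the build mm10. The annotation release, the strand setting and any removal of duplicates are not given in the sources used here, nor are the cage, litter or processing day of each mouse.

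Symbols, positions and transcripts were taken from GENCODE M21 on GRCm38 (mm10). Of the identifiers, 46488 were found there without regard to version. The diet effect was fitted in R 4.3.3 by edgeR 4.0.16 (TMM factors, filterByExpr, quasi-likelihood F-test, Benjamini-Hochberg over 15949 genes), which is the test behind every adjusted p in the results unless another is named. Intervals of log2 fold changes come from the same fit, and log2 CPM used a prior count of 2. Alternatives were DESeq2 1.42.0, limma 3.58.1 on log2(RPKM + 1) and log2(RPKM + 0.1), other scalings, filters and covariates, a replicate block, each mouse left out, counts corrected for start positions and, added after the data had been seen, counts without scaling to depth. On simulated counts with 200 genes changed by 1 on the log2 scale, edgeR recovered 174 with 10 false calls among 15753 genes tested. The simulated spread followed the trend for abundance. The 10 genes had smaller changes and a spread off that trend, so these numbers do not measure the power for them.

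The 10 genes, the pathway lists and the marker lists were chosen with earlier results of these data known. Named were the 10 genes, listed pathway genes with an adjusted p under 0.05 and the 2 with the highest mean RPKM in each list, the 5 genes most correlated with Fos and with Hspa1a, and markers. Any other gene is named as chosen after its values were seen.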

Additional observations from a re-analysis of the deposited data

Results flagged for a closer look

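One value stood apart from its group after scaling to depth. Fosb had a normalized count of 6859 in ketogenic replicate 2, against 6011 to 6154 in the other 4 ketogenic mice, and its gap to the nearest of them was 0.832 of the range of the group, above Dixon's critical value of 0.71 for 5 mice. It was the only one of 22 groups of values so tested, and chance gives about 1 in 20. In control mice the normalized count of Fosb ran from 6456 to 6825.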

How the results depend on the processing

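None of the 10 genes passed an adjusted p under 0.05 in any of 13 alternatives that kept all mice, and leaving out 1 mouse gave 0 to 1 such genes. The 1 gene was Jun without ketogenic replicate 2, with a log2 fold change of -0.14 and an adjusted p = 0.0236. Over the mice left out, Jun ran from -0.14 to -0.10. The pathway genes with an adjusted p under 0.05 numbered 1 by DESeq2 (Nfkbiz) and 0 to 5 with a mouse left out, the 5 being Btg1, Dnaja1, Irf1, Nfkbiz and Ppp1r15a without ketogenic replicate 2. The 2 genes with wide spread changed direction without passing the test. Junb had a log2 fold change of 0.17 with the cardiomyocyte score as a covariate, 0.13 with counts corrected for start positions, 0.0393 without scaling to depth and -0.11 to 0.0803 with a mouse left out. Ier2, at 0.05 as reported, had 0.41 with the cardiomyocyte score as a covariate (adjusted p = 0.597), 0.20 with counts corrected for start positions, -0.18 with the macrophage score and -0.0888 to 0.188 with a mouse left out. Atf3 had 0.0121 without scaling to depth. Of pairs of genes with an adjusted p under 0.05, 26 of 45 as reported, there were 6 of the 28 that could be computed with counts corrected for start positions (positions here come from the length that the RPKM values imply, by which Ier3 and Nr4a1 have no fewer reads than positions and drop out, while Fos, with an implied length of 4152 bases, does not) and 1 of 45 without scaling to depth.

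The number of all genes with an adjusted p under 0.05, 213 as reported, was 819 by DESeq2, 103 without scaling to depth, 31 with the cardiomyocyte score as a covariate and 86 to 492 with a mouse left out, 492 without ketogenic replicate 2, 86 without control replicate 2, and at most 134 without any one of control replicates 1, 3 and 4 or ketogenic replicates 1, 3, 4 and 5. With the replicate number as a replicate block it was 113, and 0 of the 10 genes passed. Mice of the same number did not deviate together, with correlations from -0.13 to 0.09 over genes, so that the numbers were not taken to pair the mice.

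If each start position was counted once, the counts of Fos, Atf3, Ier3 and Nr4a1, at 97.8% to 106.1% of theirs, leave little room for a difference to show. Whether each was counted once was not tested. The 67.0% to 67.6% of Zfp36 rest on Zfp36-201, which is longer than the length that its RPKM values imply.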
